A study of Triticum aestivum with 21 samples.

Results

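Wheat anthers at diplotene to anaphase I (DA) were compared with anthers at leptotene to pachytene (LP), the interval in which the paired chromosomes of the meiocytes desynapse, condense and separate. The 3 arrays labelled DA were set against the 3 labelled LP, out of 21 arrays in the series, and all 61179 probe sets of the array that are not controls were tested. Of these, 2783 differed between the stages (4.55%), and they were then sorted by their level before meiosis. The whole anthers came from untreated wild-type bread wheat of the cultivar Chinese Spring, grown in a glasshouse, and the remaining stages were PM (pre-meiosis) before LP and, after DA, TT (from telophase I until telophase II), tetrads (T), IP (immature pollen) and MAN (mature anthers). Anthers of a stage were pooled, and the 3 arrays of a stage are technical replicates of that pool, so every error and p-value below measures the spread between arrays and not between plants. No age in days was given for any stage.

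Early in meiotic prophase the chromosomes are organised along a protein axis, DNA breaks are repaired by strand exchange with the homologous chromosome, and the homologues are joined by the synaptonemal complex. At diplotene the complex comes apart while crossovers hold the homologues together until anaphase I. RNA of whole anthers also comes from the tapetum, the nutritive layer around the meiocytes, and from the outer wall. In such RNA fewer cells of a type and less RNA per cell cannot be told apart.

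Arrays of LP and of DA were alike, with correlations of 0.991 to 0.996 between the stages and of 0.995 to 0.998 within them across all probe sets. The median SD between arrays was 0.11 in LP and 0.09 in DA on the log2 scale of the intensity. The meiotic genes DMC1, ASY1, PHS1 and MSH4 lay between 7.93 and 11.24 on the LP arrays and between 7.99 and 10.43 on the DA arrays, above the level of 5 under which the study took a transcript as not expressed. DMC1 and MSH4 were also above 5 after meiosis, with means of 10.21 and 7.75 in T and of 9.63 and 7.61 in IP. Such a level does not by itself show meiocytes, and DMC1, ASY1, PHS1 and MSH4 are no marker of either stage. The labels therefore rest on the squashed anthers that were scored under the microscope. The mean of the 42 poly-A control probe sets, for transcripts added to the RNA before labelling, ranged from 6.64 to 7.002 in LP and from 7.30 to 7.54 in DA without overlap, and from 6.42 to 6.66 in PM. The hybridization controls overlapped, with 10.14 to 10.40 in LP and 10.17 to 10.64 in DA. The part of these controls in the results was not tested directly, and counts with their level as a covariate are given beside the results they move.

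Fewer transcripts rose than fell on leaving pachytene. In DA, 1001 probe sets were higher than in LP (1.64%) and 1782 were lower (2.91%), by limma with an adjusted p under 0.05. Most changes were small, the middle 50% of them being 0.49 to 0.74 in size on the log2 scale. A change of at least 2-fold was measured for 188 probe sets (0.307%), of which 68 were higher and 120 lower, and a change of at least 4-fold for 5. The 3 DA arrays lay wholly above or below the 3 LP arrays for 17084 probe sets (27.9%), of which 8774 were higher and 8310 lower, so absence of overlap alone says little about a transcript. Called probe sets were brighter than the rest, with a median level of 8.16 in LP against 5.58 for all probe sets. The 2783 probe sets fell into 2364 clusters of the array's design, whose members share sequence and are not independent.

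The excess of lower calls rested in part on 2 arrays. LP replicate 3 was the highest of the LP arrays for 1256 of the 1782 lower probe sets (70.5%), and DA replicate 3 was the lowest of the DA arrays for 1279 of them (71.8%). For the 1001 higher probe sets LP replicate 3 was the lowest array in 326 and DA replicate 3 the highest in 386, which are smaller shares (32.6% and 38.6%). Without LP replicate 3 the comparison called 1485 probe sets, 54.2% of them lower, and without DA replicate 3 it called 1171, 57.6% of them lower, against 64% with all arrays. Scaling the 9 arrays of PM, LP and DA to their hybridization controls, chosen after seeing the data, shifted the median of all probe sets by -0.15 and made 93.2% of 3093 calls lower. The poly-A covariate made 77.7% of 2738 calls lower, and 1807 of the 2738 were also called without it. The methods' t-test gave the opposite split, with 37.4% of 585 lower. With limma, 1649 probe sets were called without LP replicate 1 and 1563 without DA replicate 2.

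The strongest rise was that of Ta.5474.1.S1_at, which read 4.67, 4.80 and 4.70 on the LP arrays and 8.60, 8.44 and 8.51 on the DA arrays. The change of 3.79 on the log2 scale (SE 0.14, adjusted p = 1.0e-14) corresponds to 13.8-fold, and is understated because the LP level is under 5. PM lay as low as LP, with 4.21 to 4.78, and TT was higher still, with 13.26 to 13.48. This transcript was near background through LP, rose in DA and went on rising. Ta.3453.1.S1_at followed the same course, with 6.71, 6.92 and 6.81 in LP, 9.23, 9.20 and 9.36 in DA and 13.71 to 14.10 in TT. It rose by 2.45 (SE 0.20, adjusted p = 2.6e-08). The platform annotation used here gives no gene for either.

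Ta.1875.1.S1_at was high in DA alone among the first 4 stages. Its level was 5.49 to 5.97 in PM, 5.28 to 5.41 in LP, 7.41 to 7.46 in DA and 5.29 to 5.66 in TT. The rise from LP to DA was 2.07 (SE 0.17, adjusted p = 2.6e-08), and no later stage mean exceeded 6.0. TaAffx.128541.69.S1_at rose by the same amount, 2.07 (SE 0.20, adjusted p = 6.2e-07), from 5.16, 4.86 and 5.01 in LP to 7.08, 6.93 and 7.23 in DA, but it had read 6.57 to 7.05 in PM. Its rise therefore reversed a drop from PM to LP. The 95% interval of its DA level minus its PM level, -0.12 to 0.72, was too wide to place it within 0.5 of the PM level.

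All 4 probe sets of cluster Ta.9216 were higher in DA, by 1.65 to 1.94, and the largest change was that of Ta.9216.1.A1_x_at. Its LP arrays read 7.31, 7.54 and 7.46 and its DA arrays 9.29, 9.44 and 9.42, while PM lay between at 8.88 to 8.94 and TT came back down to 8.15 to 8.25. The dip in LP, the peak in DA and the fall by TT were each larger than the spread of the arrays. The cluster Ta.5059 also had all of its 6 probe sets higher, by 0.57 to 0.90. In the other direction, all 5 probe sets of Ta.3093 were lower in DA, by between -1.03 and -0.65.

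The strongest fall was that of TaAffx.60258.2.S1_s_at, one of the transcripts that the study had singled out on these same arrays for an 8-fold range. It read 10.87, 10.96 and 10.86 in LP and 8.26, 7.98 and 7.83 in DA, a change of -2.87 (SE 0.16, adjusted p = 2.4e-11) or 7.32-fold. In PM it had read 10.68 to 11.49, so its level was held through LP and lower in DA, and TT was lower again at 6.77 to 7.22. Ta.26108.1.A1_s_at fell by 1.80 (SE 0.18, adjusted p = 6.2e-07), from 8.87, 8.65 and 9.33 in LP to 7.35, 7.14 and 6.95 in DA, and its TT arrays read 7.21 to 7.99. Ta.1020.1.S1_a_at fell by 1.80 as well (SE 0.20, adjusted p = 5.2e-06), from 7.77, 7.46 and 8.21 to 6.24, 5.90 and 5.88, but its PM arrays at 6.52 to 7.13 lay between the stages.

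**Figure D1:**
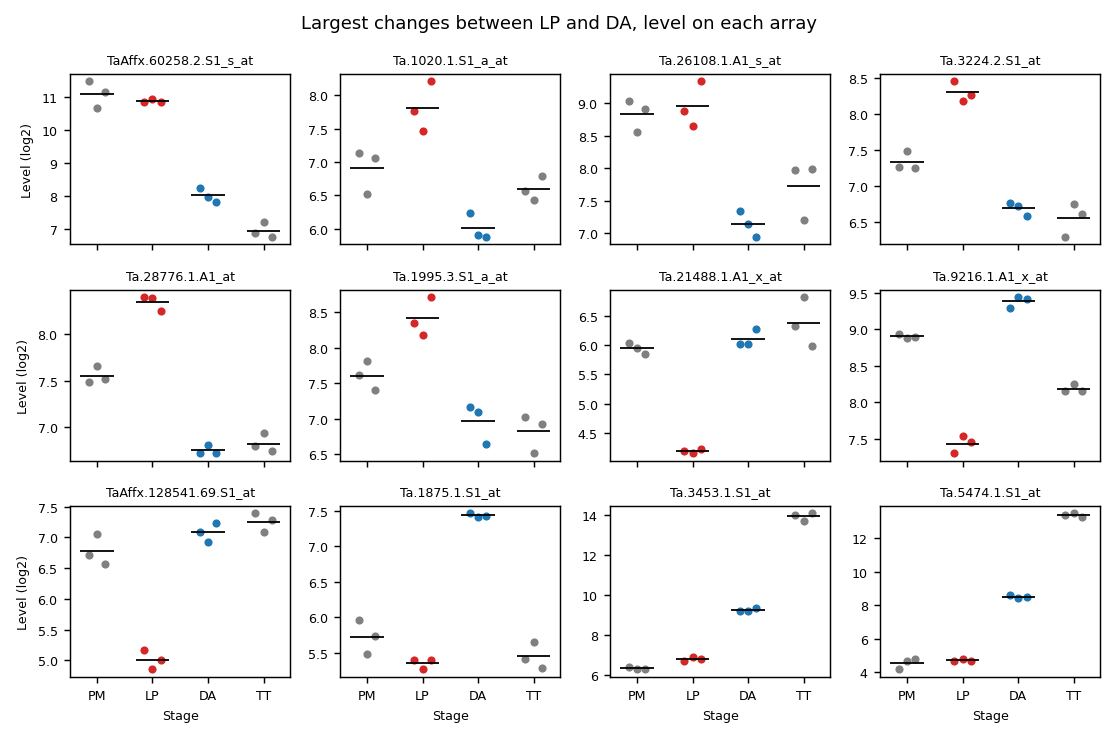
Level on each array (points, log2 intensity) and stage mean (bars) in PM, LP, DA and TT for the 6 lowest and the 6 highest changes from LP to DA, in order of the change. LP (red) and DA (blue) overlap in none of them, from the fall of 2.87 in TaAffx.60258.2.S1_s_at to the rise of 3.79 in Ta.5474.1.S1_at, and each panel has its own level axis that does not start at 0.

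Each of the 2783 changes was then set against PM. A probe set was said to have returned if LP differed from PM in the opposite direction and the 95% interval of DA minus PM lay within 0.5 of 0 (log2). It was said to have left if LP did not differ from PM but DA did, in the direction of the change from LP. The 3 comparisons share arrays, so an LP mean that is off by chance raises both sides of a return, and the classes are given as counts with no test. In all, LP differed from PM for 3630 probe sets (5.93%, with 3.67% higher and 2.26% lower) and DA from PM for 2747 (4.49%, with 2.24% higher and 2.25% lower).

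Similar numbers took the 2 courses at the margin of 0.5, though the number returned depends on that margin, being 31 at 0.25 and 908 at 1. A return was found for 641 probe sets (1.05% of those tested) and a departure for 638 (1.04%). Of the returned probe sets 470 had been above PM in LP and fell back, while 171 had been below and rose back. None of the 641 differed between DA and PM, for which the margin on the interval left little room. Of those that left, 321 fell and 317 rose. A further 42 probe sets overshot, passing from one side of the PM level to the other (24 upward, 18 downward), 12 returned in part, and 89 continued in the direction taken from PM to LP (53 upward, 36 downward). The other 1361 were unresolved, in 1138 cases because neither LP nor DA differed from PM and in 223 because the interval of DA minus PM reached past the margin. The widest interval still counted as a return ended 0.4999 from PM (Ta.6315.3.S1_a_at), and the nearest not counted ended 0.5006 from it (TaAffx.113921.1.S1_at).

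Large changes were departures more often than returns by count, with 48 of the 638 that left and 18 of the 641 that returned reaching 2-fold. Returned probe sets that had been high in LP were a median of 0.60 above PM in LP and -0.02 from it in DA, and LP replicate 3 was the highest LP array in 360 of the 470 (76.6%). Without LP replicate 3 only 255 probe sets were counted as returned and 489 as left. With the poly-A controls as a covariate 200 were counted as returned and 407 as left, of which 133 and 232 had the same class without it.

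Among the returned transcripts that rose, Ta.21488.1.A1_x_at changed most, by 1.92 (SE 0.14, adjusted p = 5.0e-09). It read 5.85 to 6.03 in PM, 4.19, 4.16 and 4.22 in LP and 6.02, 6.02 and 6.27 in DA, so LP alone stood apart and lay under 5. TaAffx.3462.1.S1_at behaved alike, with 6.48 to 6.56 in PM, 4.68, 4.70 and 5.20 in LP and 6.36, 6.56 and 6.79 in DA, a rise of 1.71 (SE 0.14, adjusted p = 2.6e-08). Among those that fell back, TaAffx.113953.1.S1_s_at changed most, by -1.33 (SE 0.16, adjusted p = 1.2e-05). Its arrays read 7.87 to 8.16 in PM, 9.18, 9.12 and 9.22 in LP and 8.09, 7.89 and 7.55 in DA.

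Of the 641 returned probe sets 2 had a readable symbol, beside 200 of all 61179 probe sets. FKBP70, a peptidyl-prolyl isomerase of the FK506-binding family that acts as a co-chaperone, read 12.12 to 12.54 in PM, 12.74, 12.71 and 12.88 in LP and 12.35, 12.34 and 12.22 in DA. It fell by 0.47 (SE 0.12, adjusted p = 0.017), and the call was lost without LP replicate 3, DA replicate 2 or DA replicate 3. The translation initiation factor eIF-2-beta read 11.81 to 11.98 in PM, 12.27, 12.25 and 12.54 in LP and 11.96, 11.96 and 11.88 in DA. It fell by 0.42 (SE 0.12, adjusted p = 0.035), a call that was lost when any 1 of the LP and DA arrays but LP replicate 2 was left out. It was the only one of 10 probe sets of the translation list to be called in DA against LP, where 4.55% of all probe sets were called.

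The continued class held transcripts in steady movement over the first 3 stages. Ta.10020.1.S1_at, another of the study's transcripts with an 8-fold range, went from 8.59 to 9.02 in PM through 7.40, 7.21 and 7.67 in LP to 5.89, 6.10 and 6.10 in DA, and the fall from LP was 1.40 (SE 0.15, adjusted p = 2.6e-06). Ta.6922.1.S1_at of the same group fell by 1.29 (SE 0.15, adjusted p = 5.9e-06). Ta.11744.1.A1_at moved the other way, from 6.14 to 6.36 in PM through 7.55, 7.41 and 7.64 in LP to 8.87, 8.79 and 8.85 in DA, a 2.47-fold rise from LP (SE 0.12 on the log2 scale, adjusted p = 1.1e-07). The study singled out 7 transcripts for an 8-fold range and a significant change over the first 3 stages. Of these, 4 fell from LP to DA, 1 rose (WMC10, described with the meiosis candidates) and 2 were not called, beside 2.91% lower and 1.64% higher of all probe sets. The choice of the 7 on these arrays, LP and DA included, makes that count no independent evidence. Of its 4 early transcripts 1 fell, beside the same 2.91%, namely TaAffx.29005.1.S1_at, by 1.19 (SE 0.17, adjusted p = 7.7e-05). The study chose these 4 on the same arrays for a high level in PM or LP and a low one in every later stage. A member chosen through its LP level had to fall by DA, so this count is no independent evidence either. The putative condensin subunit Ta.400.2.A1_at, whose complex compacts chromosomes, changed by -0.27 (SE 0.13, adjusted p = 0.33).

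After DA the classes took different courses. TT lay within 0.5 of PM by the same interval for 399 of the 641 returned probe sets (62.2%), for 174 of the 638 that left (27.3%) and for 70.1% of all probe sets. Because the PM arrays entered both the class and this count, it is a description. Departures downward were kept more often by count than departures upward: TT was still below PM in 220 of 321 (68.5%, against 4.44% of all probe sets) and still above it in 137 of 317 (43.2%, against 3.5%). The median of the downward departures was -0.61 from PM in DA, -0.56 in TT and -1.69 in MAN. That of the upward departures was 0.60 in DA, 0.32 in TT and 0.05 in MAN.

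**Figure D2:**
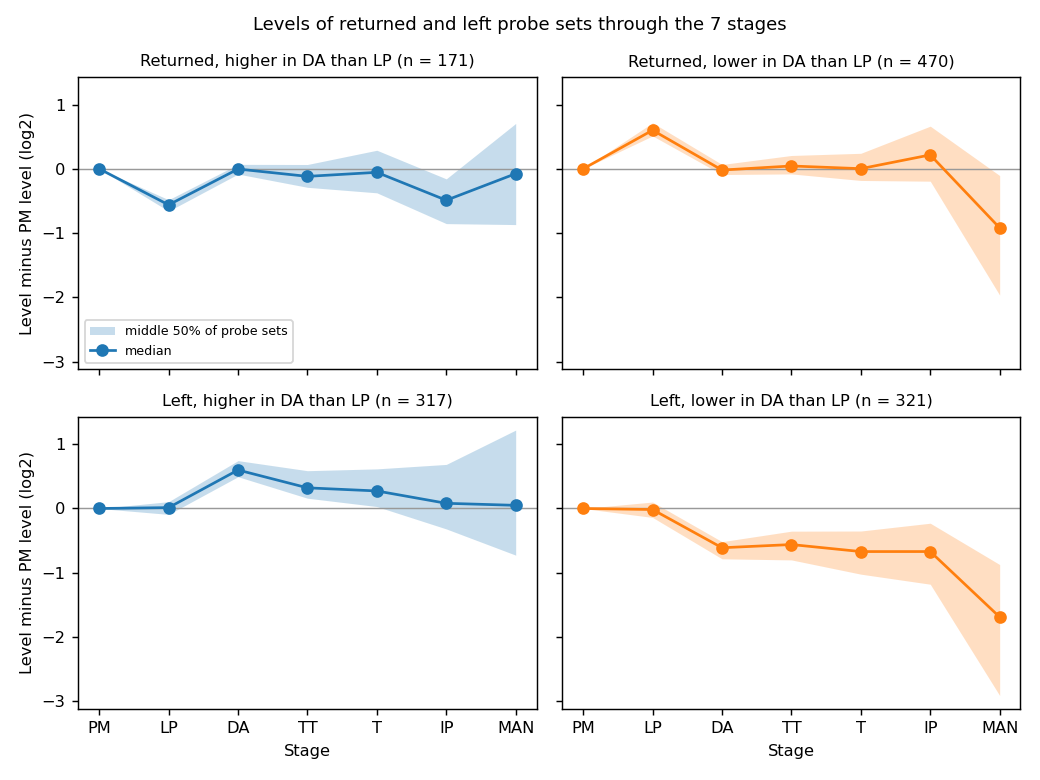
Level minus the PM level (log2) at the 7 stages for the returned (top) and left (bottom) probe sets, split by direction, with lines for the median and bands for the middle 50% of the probe sets. The values at PM, LP and DA formed the classes. Downward departures stay low through TT (median -0.56), and upward ones are at 0.32 there.

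The levels of the later stages did not enter the 3 comparisons that form the classes. Their arrays did enter the spread behind those calls, since all 21 arrays share 1 model. Class membership thus depends on them too, and without IP replicate 1 there were 984 returned and 833 left. A probe set with little spread is called more easily in every comparison, but its direction is free. From TT to T, 3.13% of all probe sets were higher and 3.09% lower, and the returned and left groups lay between 5.32% and 17.5% in either direction. From T to IP, 55.6% of the 171 returned probe sets that had dipped in LP were lower, against 9.28% of all probe sets, and 6.43% were higher. The 470 that had peaked in LP tended the opposite way, with 31.9% higher in IP against 8.01% of all probe sets and 10% lower. Returned probe sets below PM in LP were thus often lower in IP than in T, and returned ones above it more often higher than lower. Of the 24 overshot probe sets that dipped in LP, 20 were lower in IP and 1 was higher, whereas of the 18 that peaked in LP, 2 were higher and 4 lower.

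The split held among bright probe sets and without the weakest array. Among probe sets with a mean of at least 7 over the stages, 62.4% of the LP-dip group were lower in IP against 19.9% of all such probe sets, and 32.1% of the LP-peak group were higher against 14.9%. IP replicate 1, whose hybridization controls read 8.69 against 10.28 and 10.36 on the other IP arrays, could be left out. The figures were then 48% lower for the LP-dip group against 6.21% of all probe sets, and 26.8% higher for the LP-peak group against 7.69%. The groups themselves were still those formed with all 21 arrays. From T the departures showed less of a direction, with 32.5% lower and 19.2% higher for those that rose in DA and 25.2% lower and 20.2% higher for those that fell.

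From IP to MAN, 76.4% of the LP-peak group and 75.1% of the downward departures were lower, against 25.6% of all probe sets. Among bright probe sets alone these were 78.8% and 76.1% against 56.2%, so a fall was common among bright probe sets in general. The LP-dip group was higher in MAN for 54.4% of its members, against 38.6% of all probe sets.

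**Figure D3:**
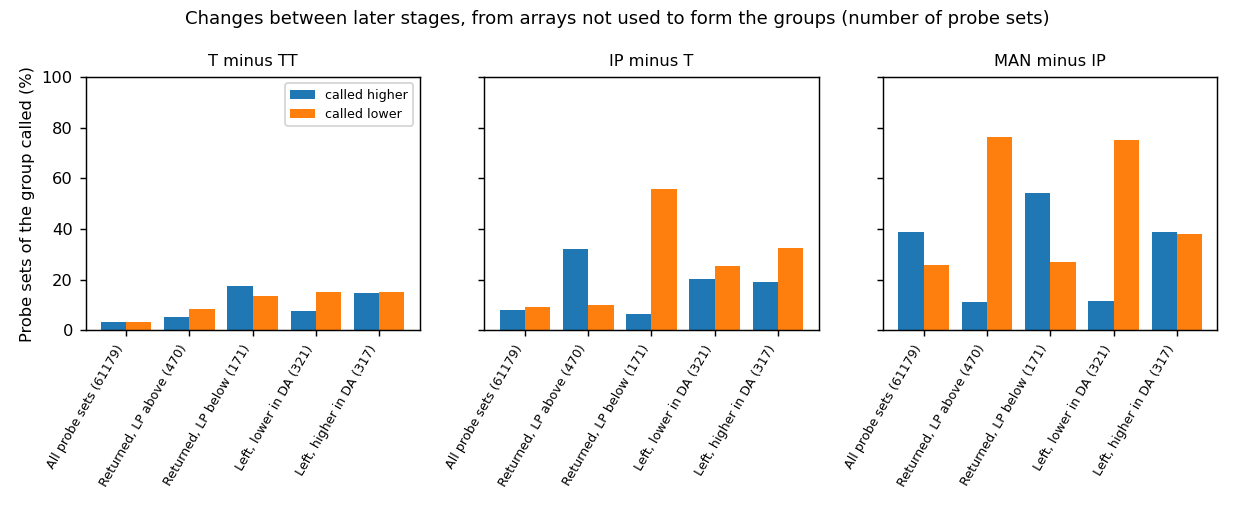
Share of each group (%) called higher (blue) or lower (orange) from TT to T, from T to IP and from IP to MAN, for all probe sets, the returned ones that lay above or below PM in LP, and those that left PM in DA. From T to IP the 171 that dipped in LP are mostly called lower (55.6%), and the 470 that peaked in LP are more often called higher (31.9%) than lower (10%).

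Genes of strand exchange did not move as 1 group. DMC1, the meiosis-specific recombinase, read 11.24, 11.14 and 11.17 in LP and 10.42, 10.32 and 10.38 in DA, a fall of 0.81 (SE 0.11, adjusted p = 8.0e-05). Its PM arrays read 11.76 to 11.84, so the fall continued one already under way. RPA, which coats single-stranded DNA, fell by 0.93 (SE 0.14, adjusted p = 0.00016), from 9.99, 9.89 and 10.39 in LP to 9.21, 9.15 and 9.11 in DA. PM lay between at 9.32 to 9.78, and DA minus PM had an interval of -0.70 to -0.13, so RPA was neither shown to have returned nor to have left.

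RAD54, a motor protein that assists strand exchange, was not called between LP and DA and changed by -0.08 (interval -0.34 to 0.18, adjusted p = 0.87) after its fall from 10.18 to 10.53 in PM to 9.35 to 9.44 in LP. DMC1 thus fell from PM to LP and again from LP to DA, while RAD54 was called only from PM to LP of these 2 steps.

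ASY1, a protein of the chromosome axis needed for synapsis, left its earlier level. It read 10.85 to 10.94 in PM, 10.93, 10.83 and 10.77 in LP and 10.43, 10.36 and 10.31 in DA, a fall of 0.47 (SE 0.12, adjusted p = 0.025). The call was lost under quantile normalization, under the poly-A covariate and when any 1 of the LP arrays, DA replicate 2 or DA replicate 3 was left out. PHS1, which in maize is needed for correct pairing of homologues, was at 10.30, 10.23 and 10.16 in LP and 10.19, 10.16 and 10.18 in DA, a change of -0.05 (interval -0.30 to 0.19, adjusted p = 0.92). MSH4, which stabilises crossover intermediates, changed by 0.05 (interval -0.19 to 0.29, adjusted p = 0.92). MSH6, of mismatch repair, read 5.68, 5.59 and 5.74 in LP and 4.95 to 5.04 in DA without overlap, and its change of -0.67 was not called (interval -1.11 to -0.23, adjusted p = 0.077). The methods' t-test on the LP and DA arrays alone did call it (adjusted p = 0.036).

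The wheat meiosis candidates of the study, whose WM and WMC names carry no function here, included 3 that peaked in LP. WMC3 read 7.48 to 7.66 in PM, 8.40, 8.39 and 8.25 in LP and 6.72, 6.80 and 6.72 in DA, falling by 1.60 (SE 0.11, adjusted p = 9.4e-10). WMC5 fell by 1.62 (SE 0.16, adjusted p = 9.4e-07), from 8.46, 8.19 and 8.27 in LP to 6.76, 6.72 and 6.58 in DA, and WMC6 by 1.39 (SE 0.16, adjusted p = 7.6e-06), from 9.06, 9.01 and 9.23 to 7.94, 7.67 and 7.52. In all 3 the LP arrays were above the PM arrays and the DA arrays below them, so each was highest in LP among these 3 stages and fell through its PM level.

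WMC10 (TaAffx.38162.1.S1_at) was the one candidate that rose. It read 8.06, 8.53 and 8.08 in PM, 5.81, 5.71 and 5.42 in LP and 6.78, 6.86 and 6.57 in DA, a rise of 1.09 (SE 0.14, adjusted p = 2.7e-05) that left DA at -1.49 from PM. TT passed that level, at 8.86 to 8.92, so the return was reached only by TT. WMC4 was at 6.98, 7.19 and 7.42 in LP and 7.13, 7.03 and 6.99 in DA (change -0.15, interval -0.44 to 0.14, adjusted p = 0.73), and WM5 changed by -0.11 (interval -0.39 to 0.17, adjusted p = 0.81). These members were chosen by the study with the series in hand, and the count of 3 lower and 1 higher of 6 is a description beside 2.91% and 1.64% of all probe sets.

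**Figure D4:**
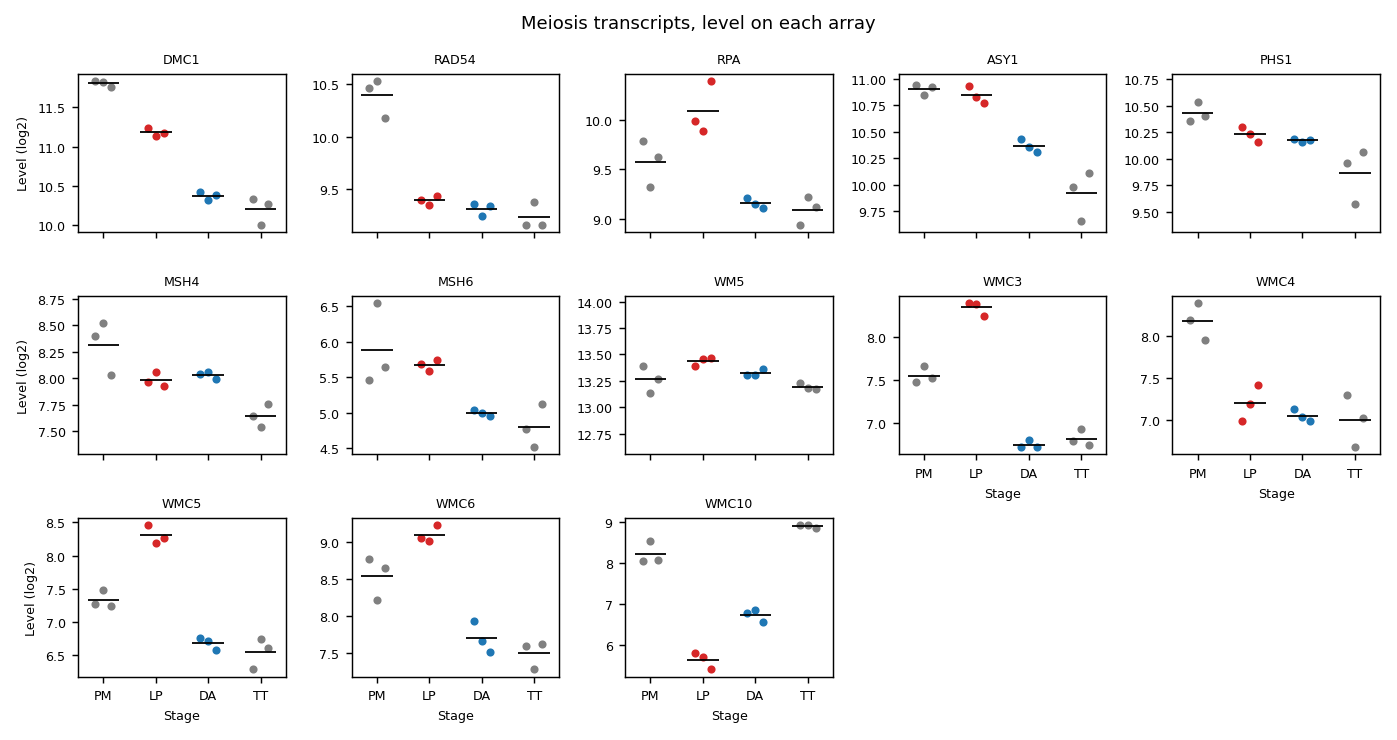
Level on each array (points, log2 intensity) and stage mean (bars) in PM, LP, DA and TT for meiosis transcripts named in the text. WMC3, WMC5 and WMC6 peak in LP (red) and lie below PM in DA (blue), DMC1 steps down at each stage to DA, and WMC10 rises from LP by 1.09 without reaching PM; each panel has its own level axis that does not start at 0.

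Other gene lists gave few calls between LP and DA, beside 4.55% of all probe sets (2.91% lower). Of 18 probe sets of histones, which package DNA, none was called (median change -0.15 against 0.02 for all probe sets), though wcH2B-6 (Ta.27708.1.S1_at), at -0.28 here, was called at -0.53 with the poly-A covariate. Among 10 tubulin probe sets, for the microtubules of the spindle and the cell cortex, 1 fell, that of Tubb5 (Ta.214.1.S1_at), by 0.47 (SE 0.11, adjusted p = 0.016), from 12.31, 12.24 and 12.11 to 11.82, 11.78 and 11.65. The other 3 Tubb5 probe sets were not called, with changes of -0.40, -0.12 and -0.13, and the call was lost with the poly-A covariate, without LP replicate 1 and without DA replicate 3. The genes that the study used as flat controls changed by -0.02 and -0.00.

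Of named genes outside those lists, GLU1A, a beta-glucosidase, fell most, by 1.04 (SE 0.17, adjusted p = 0.00056), from 9.43, 9.42 and 9.37 in LP to 8.47, 8.33 and 8.30 in DA. PEAMT1, a methyltransferase of choline synthesis, fell by 0.54 (SE 0.12, adjusted p = 0.0085), a call that was lost without LP replicate 3 or DA replicate 3. XTH, a xyloglucan-modifying enzyme of the cell wall, fell by 0.53 (SE 0.14, adjusted p = 0.026). Rises were smaller, with 0.56 for the xylanase inhibitor XIP-I (SE 0.14, adjusted p = 0.023), 0.47 for the gibberellin biosynthesis gene GA20ox1b (SE 0.13, adjusted p = 0.028) and 0.45 for PIMT, a protein repair methyltransferase (SE 0.13, adjusted p = 0.042). The other XIP-I probe set changed by 0.37 and was not called (adjusted p = 0.10). XTH, XIP-I, GA20ox1b and PIMT each lost the call with the poly-A covariate and without LP replicate 1, DA replicate 2 or DA replicate 3. XIP-I and PIMT lost it also without LP replicate 2 or DA replicate 1, and XTH and GA20ox1b without LP replicate 3.

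Markers of the tapetum and of the green anther wall moved mainly before LP. All 4 probe sets of the raftins, tapetum proteins, were higher in LP than in PM (3.67% of all probe sets), and none was called between LP and DA. Their summed level was 13.07 to 13.83 in PM, 14.18 to 14.57 in LP and 14.11 to 14.23 in DA. Of 9 probe sets of nuclear photosynthesis genes, for the green anther wall, 6 were higher in LP than in PM and 1 was lower in DA than in LP (2.91% of all probe sets), that of thioredoxin M (Trx-M), by 0.67 (SE 0.19, adjusted p = 0.045). Their summed level was 12.30 to 13.03 in PM, 13.21 to 13.70 in LP and 13.11 to 13.20 in DA, without overlap between LP and DA. Trx-M read 9.53, 9.33 and 10.27 in LP and 9.20, 8.98 and 8.92 in DA, with the highest value on LP replicate 3, and the call was lost when any 1 of the 6 arrays but LP replicate 2 was left out. Starch and sugar genes gave no call among 14 probe sets (4.55% of all), and their summed level overlapped (13.29 to 13.51 in LP, 13.23 to 13.35 in DA). Profilin had been taken as a marker of late microspores and pollen, but its 2 probe sets were already high before meiosis. Their means were 13.93 and 9.96 in PM, 13.53 and 10.01 in IP and 13.90 and 10.42 in MAN. Profilin therefore does not mark pollen in these data, and neither probe set was called between LP and DA. Its summed level was 13.91 to 14.10 in PM, 14.05 to 14.10 in LP and 14.14 to 14.16 in DA, the last without overlap with LP. Whether the cell makeup of the anthers took part in the changes was not tested.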

How the data were processed

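The authors hybridized RNA of staged anthers, amplified in 2 rounds, to the Affymetrix GeneChip Wheat Genome Array and deposited the RMA intensity of each probe set (corrected for background, normalized across arrays and summarised over the probes). The methods give the analysis in log2, but the deposited values are linear, so log2 was taken. RMA brings arrays to a common distribution, which can hide a shift of all transcripts. The 3 arrays of a stage limit the precision. Of 61290 probe sets 111 controls were set aside, while probe sets that the study discarded as duplicates or for technical faults carry no mark and stayed in. Many probe sets cannot separate the homoeologous copies of a gene.

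All 21 arrays of the 7 stages were fitted in limma 3.58.1 (R 4.3.3) with a mean per stage, empirical Bayes (14 residual and 10.6 prior degrees of freedom) and Benjamini-Hochberg adjustment over 61179 probe sets, and an adjusted p under 0.05 was a call. The median SE of DA minus LP was 0.13. The model and the classes were tested on simulated data with independent noise for each value. That test does not cover deviations that many probe sets of an array share. Figures were drawn with matplotlib 3.10.9 (Python 3.11.15).

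The comparison, the classes and the gene lists were chosen with earlier results of these data known. The first gene lists, made of search patterns, were replaced after the annotation's gene names and the largest changes between DA and LP had been seen, with 17 lists of exact names beside the 6 of the study's own probe sets. Lists for cell cycle and replication, floral regulators and pollen were dropped then, and others were merged or split. No list is therefore used as evidence, and the remaining lists, beside 4.55% of all probe sets called, were chromatin and transcription (0 of 4 probe sets called), rbcL (0 of 28), dehydration (0 of 10), seed storage (0 of 17), antioxidant (0 of 13), profilin (0 of 2), transport (0 of 5), chaperones (1 of 2), inhibitors and defence (1 of 23), methyl transfer (2 of 5) and gibberellin 20-oxidase (1 of 4). The platform annotation gives a symbol for 1273 probe sets, of which 200 have a readable symbol or synonym through RefSeq (IWGSC CS RefSeq v2.1). Sequences of probe sets and a genome were not used here, and some members of the strand exchange list are not reported here.

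Probe sets were named if they had the 6 highest or 6 lowest changes, were among the 3 largest of a class in each direction, were named by the study, carried a readable symbol and were called (up to 10 in each direction), or were among up to 4 called members of a list. The clusters Ta.5059 and Ta.3093, the pair at the margin, Ta.9216 as a cluster and the Tubb5 probe sets that were not called were picked after their values were seen. So were the comparisons of later stages. The alternatives were the methods' t-test (equal variances, adjusted and unadjusted), the 9 arrays of PM, LP and DA alone, the replicate number as a block, an intensity trend, median centring, quantile normalization, scaling to the 27 hybridization control probe sets, array weights, a poly-A covariate, a mean above 5, no probe sets ending in _s_at, _x_at or _a_at, a minimum of 2-fold, other margins and rules for the classes, and each array of PM, LP and DA left out in turn.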

Additional observations from a re-analysis of the deposited data

How the results depend on the processing

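The counts below give, in this order, the probe sets that differed between DA and LP, those that returned to PM and those that left it, against 2783, 641 and 638. The methods' t-test gave 585, 0 and 74 after adjustment (366 of the 585 higher) and 11386, 2193 and 2321 without it. Scaling to the hybridization controls over all arrays gave 42, 0 and 8, and over the 9 arrays of PM, LP and DA, added after seeing the data, 3093, 554 and 391, the median change over the array being -0.15 in both. Array weights gave 9899, 1729 and 2148, the poly-A covariate 2738, 200 and 407, a minimum of 2-fold 188, 18 and 48, and the omission of probe sets ending in _s_at, _x_at or _a_at 1552, 286 and 425. With the poly-A covariate, 1807 of the 2738 were also called without it. Of its 200 returned and 407 left, 133 and 232 had the same class without it. Leaving out 1 array of PM, LP or DA gave 1171 to 2960, 255 to 609 and 264 to 598. Without IP replicate 1, also added later, the counts were 3613, 984 and 833. A margin of 0.25 left 31 returned, and 908 were counted at a margin of 1. The replicate number as a block gave 2766, 656 and 630. Samples of the same number deviated with correlations of 0.12, 0.08 and -0.01 between LP and DA. Between PM and LP these were -0.12, -0.12 and -0.23, and samples of different number in LP and DA gave -0.22 to 0.15. Such values cannot show whether arrays of the same number shared any processing. Under the block all 106 named changes, called or not called, stayed so.

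No called change among those named reversed its direction. Some that were not called changed sign over the alternatives, as MSH4 did between -0.12 and 0.09. The adjusted t-test ended the call of 25 named changes and scaling to the hybridization controls that of 21. The cause of these differences was not tested. The spread rests on technical replicates of 1 pool per stage, so no count extends to other plants, and levels near 5 understate changes. Of the arrays left out 1 at a time, LP replicate 3 gave the lowest count of returned probe sets.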
